A study of Mus musculus with 2 samples.

Results

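The cells described here are those of the mouse tongue epithelium whose RNA held many transcripts of the DNA replication machinery and few transcripts of mitosis. Members were chosen by these measured sums themselves. A cell was a member when 15 replication genes (Mcm2 to Mcm7, Pcna, Gins2, Hells, Uhrf1, Dtl, Rrm2, Tyms, Cdc6 and Ung, called the S list) summed to at least 10 UMIs per 10000 and when Top2a, Mki67, Ube2c, Cenpf, Birc5 and Nusap1 together (the mitotic list) stayed under 10 per 10000. A UMI, or unique molecular identifier, counts 1 captured transcript. Of 4078 kept cells, 318 (7.80%) were members, 59 in the library of Zeitgeber time (ZT) 0 and 259 in that of ZT12. The class is a range cut from per-cell sums and not a cell type, and the genes of both lists are high or low in it because they chose it.

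The study took tongue epithelium from male mice labelled B57BL/6, aged 8 to 12 weeks, at ZT0 and at ZT12, which by convention are lights on and lights off. The epithelium was dissociated with TrypLE, a trypsin-like enzyme, cells that excluded the dye 7-AAD were sorted, and 10x Genomics 3' version 2 libraries were made. No genetic change or treatment is named for either group, and the sources used here do not give the number of mice behind a library. There was 1 library per time, so time of day and library cannot be told apart, no test was made, and every interval below is an exact 95% interval that covers counting error only.

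Epithelia of the tongue renew from a basal layer of keratinocytes, which divide and whose daughters move up to differentiate and are shed. A cell that commits to division passes from G1 into S phase when cyclin D and cyclin E kinases release E2F transcription factors, and E2F switches on the genes that license and copy DNA. The MCM proteins form the ring-shaped helicase that is loaded on origins in G1 and unwinds DNA in S phase, and the genes of chromosome condensation and spindle assembly come on later, from late S phase to mitosis. Skin and oral epithelia are known for a daily rhythm in the number of cells in S phase.

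Promoters of the S list were searched for 4 octamers of the kind E2F factors bind (TTTCCCGC, TTTCGCGC, TTTGCCGC and TTTGGCGC, on both strands, overlapping matches counted). The windows ran from 250 bases before to 50 bases after the transcription start in RefSeq on GRCm38.p6, the assembly that mm10 stands for. Of the 15 genes, 13 matched the table, and 8 of these (61.5%) had at least 1 match in a window. None of the 6 genes of the mitotic list had one, and 704 of all 27025 genes (2.60%) did. The 3 promoters shown, in 5' to 3' direction of the gene and with matches in capitals, belong to the 3 helicase subunits with the highest ratio of members over the basal reference at ZT0 (41.8 for Mcm5, 36.4 for Mcm3 and 16.2 for Mcm6).
Mcm3: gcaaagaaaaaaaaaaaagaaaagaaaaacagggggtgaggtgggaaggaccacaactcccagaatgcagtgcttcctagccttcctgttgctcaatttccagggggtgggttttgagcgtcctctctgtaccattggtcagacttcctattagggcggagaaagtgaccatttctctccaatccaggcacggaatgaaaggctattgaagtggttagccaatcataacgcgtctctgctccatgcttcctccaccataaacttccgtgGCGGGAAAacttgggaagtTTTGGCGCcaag
Mcm5: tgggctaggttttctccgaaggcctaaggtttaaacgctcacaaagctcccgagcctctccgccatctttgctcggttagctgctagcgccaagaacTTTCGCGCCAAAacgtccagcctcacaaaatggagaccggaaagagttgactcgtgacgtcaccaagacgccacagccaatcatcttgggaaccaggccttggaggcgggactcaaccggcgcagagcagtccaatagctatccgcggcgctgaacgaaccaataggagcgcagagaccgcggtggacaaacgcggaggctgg
Mcm6: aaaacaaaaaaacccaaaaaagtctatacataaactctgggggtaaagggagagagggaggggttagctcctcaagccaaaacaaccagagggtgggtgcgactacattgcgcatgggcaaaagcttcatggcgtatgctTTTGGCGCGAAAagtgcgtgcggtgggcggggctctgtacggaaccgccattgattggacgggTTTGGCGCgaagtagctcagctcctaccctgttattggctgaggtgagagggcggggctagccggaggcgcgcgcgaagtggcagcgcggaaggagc
The Mcm3 window is chr1:20820263-20820562 on the minus strand, with matches that begin 19 and 38 bases after the start. That of Mcm5 is chr8:75109259-75109558 on the plus strand, where 2 overlapping matches begin 153 and 149 bases before the start (offsets -153 and -149). That of Mcm6 is chr1:128359656-128359955 on the minus strand, with matches at offsets -110, -106 and -47. Among the other S genes Mcm7 had 2 matches and Cdc6, Dtl, Hells and Uhrf1 had 1 each, while Mcm2, Pcna, Rrm2, Tyms and Ung had none in these windows. A match is a description of the letters only.

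The ZT0 library held 1525 kept cells with a median of 29223 UMIs and 5265 genes, and the ZT12 library 2553 kept cells with 23456 UMIs and 4747 genes. Members had medians of 29090 UMIs, 5427 genes and 4.19% mitochondrial UMIs at ZT0, and of 21908 UMIs, 4745 genes and 3.89% at ZT12. Depth therefore differed between the members of the 2 libraries, and its part in the differences below was examined only by thinning cells to 5000 UMIs. The libraries shared 2 barcodes, of which 0 were members. Doublets were not removed from the main result.

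Members were more frequent in the ZT12 library. They made up 59 of 1525 cells (3.87%, 2.96 to 4.96) at ZT0 and 259 of 2553 cells (10.1%, 9.0 to 11.4) at ZT12, a ratio of 2.62 (1.97 to 3.54). The share of cells with a high S list sum regardless of mitotic transcripts was nearly the same, 157 cells (10.3%) at ZT0 and 282 cells (11.05%) at ZT12, with a ratio of 1.07 (0.880 to 1.31). The libraries differed in the share of these cells that also had a high mitotic sum. Of the cells with a high S list sum, 37.6% (29.99 to 45.7) were free of a high mitotic sum at ZT0 and 91.8% (88.0 to 94.8) at ZT12. Cells high in both sums numbered 98 (6.43%) at ZT0 and 23 (0.901%) at ZT12, a share 7.13-fold (4.49 to 11.8) higher at ZT0. A like difference was seen in cells with a low S list sum and a high mitotic sum. They numbered 89 (5.84%) at ZT0 and 20 (0.783%) at ZT12, a share 7.45-fold (4.55 to 12.8) higher at ZT0. The scarcity of high mitotic sums at ZT12 was thus not particular to cells with a high S list sum.

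**Figure D1:**
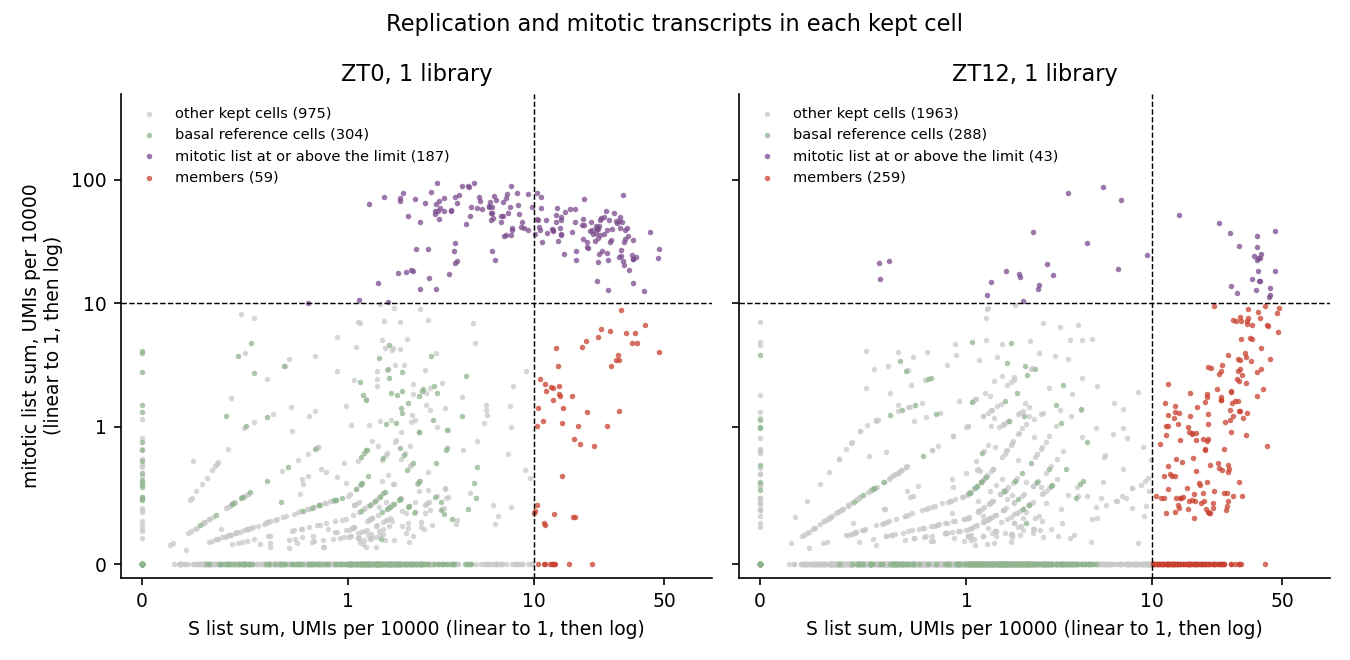
Each point is 1 kept cell of the ZT0 library (left) or the ZT12 library (right), with its S list sum on the x axis and its mitotic list sum on the y axis, both in UMIs per 10000 on scales that are linear to 1 and logarithmic above. Dashed lines mark the limits of 10, and the members at the lower right number 59 at ZT0 and 259 at ZT12, while cells above the mitotic limit number 187 and 43.

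Within the basal range the difference in share was larger. Basal range here means a sum of at least 62.0 UMIs per 10000 over Krt5, Col17a1, Itga6, Itgb4, Trp63, Lama3 and Lamb3, keratin and adhesion genes of the basal layer, together with Krt4 plus Krt13 of at most 48.4 per 10000. These limits were the 25th percentile of the first sum and the 75th percentile of the second over the members of both libraries together. The first limit left out 29 of 59 members (49.2%) at ZT0 and 51 of 259 (19.7%) at ZT12. Basal-range cells were 27.1% of kept cells at ZT0 and 20.5% at ZT12. Members were 28 of 414 basal-range cells (6.76%, 4.54 to 9.63) at ZT0 and 149 of 524 (28.4%, 24.6 to 32.5) at ZT12, a ratio of 4.20 (2.79 to 6.54). Outside the basal range they were 2.79% and 5.42% of cells, a ratio of 1.94 (1.29 to 2.996). With the first limit alone, whatever the Krt4 plus Krt13 sum, 30 members (5.74%) and 208 members (22.9%) were counted, a ratio of 3.99 (2.71 to 6.06). The difference between these ratios was not tested, nor was the part of the limits in it.

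Cells lay on both sides of the S list limit, and few lay near the mitotic limit. At ZT0 the lowest S list sum of a member was 10.0 and the highest of a non-member with low mitotic sum was 9.67, against 10.1 and 9.92 at ZT12. The highest mitotic sum of a member was 8.76 at ZT0 and 9.49 at ZT12, and the lowest among cells high in both sums was 11.3, at ZT12. Cells with an S list sum from 8 to 10 and a low mitotic sum numbered 10 at ZT0 and 56 at ZT12. Only 1 and 6 members had a mitotic sum above 8. When every cell was thinned to 5000 UMIs before the limits were applied, 68 cells (4.46%) and 278 cells (10.9%) were members, and these held 50 (84.7%) and 245 (94.6%) of the original members.

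Members differed among themselves. The S list sum had a median of 14.1 per 10000 at ZT0 and 18.7 at ZT12, and reached 46.8 and 47.9. The mitotic list sum had a median of 1.43 and 0.483, and was 0 in 10 of 59 members (16.9%) at ZT0 and in 106 of 259 (40.9%) at ZT12. Depth was lower at ZT12. After thinning to 5000 UMIs, 45.8% (32.7 to 59.2) of members at ZT0 and 32.4% (26.8 to 38.5) at ZT12 had a UMI of the mitotic list, with intervals that overlapped, where 83.1% and 59.1% had one without thinning. In the basal reference the thinned shares were 14.5% and 11.5%. The mitotic sum went up with the S list sum. Members with an S list sum under 20 had a median mitotic sum of 1.01 at ZT0 (41 cells) and 0 at ZT12 (148 cells), and those at 20 or more had 4.43 (18 cells) and 1.35 (111 cells).

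The levels below are UMIs of a gene summed over the cells of a class, scaled to the cells' total UMIs as CPM, where 100 CPM are 1 UMI in 10000. They were compared with 2 other classes of the same library. The basal reference holds 304 cells at ZT0 and 288 at ZT12 of the basal range that had both the S list and the mitotic list sum under 5 per 10000. The mitotic cells are the 187 and 43 cells at or above the mitotic limit. Since the members, the reference and the mitotic cells were all cut by the same sums, these comparisons are descriptions.

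The helicase genes, which the rule used, are given as a description. Mcm3, a subunit of the MCM helicase (chromosome 1, 20802968 to 20820312, mm10), stood at 161 CPM in members at ZT0 and 213 CPM at ZT12, against 4.43 and 5.74 CPM in the basal reference. That is 36.4-fold (24.9 to 55.0) and 37.0-fold (25.7 to 55.5) higher. Mcm5 (chromosome 8, 75109569 to 75128439) was at 98.7 and 137 CPM against 2.36 and 4.56. Mcm6 (chromosome 1, 128331590 to 128359664) was at 172 and 194 CPM against 10.6 and 15.5. The smallest ratios among the 6 subunits were those of Mcm7, 6.88 and 5.94, since this subunit was at 19.9 and 28.5 CPM in the reference. Mitotic cells had S list sums that differed between the libraries. Against them, 9 of the 15 S list genes were at least 1.5-fold higher in members and 2 lower at ZT0, with intervals that excluded 1. At ZT12, 2 were higher and 3 lower. Over all genes of mean CPM 5 or more, 842 of 9753 were higher and 1079 lower at ZT0. At ZT12 these were 533 and 803 of 9681. Over the whole S list the median log2 ratio was 1.09 at ZT0 and -0.02 at ZT12. In mitotic cells at ZT0 Mcm3 was at 61.5 CPM and Mcm6 at 63.5, whereas Mcm5 and Mcm7, at 79.8 and 109, were closer to the members.

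The other S genes split by their level in mitotic cells. Ung, the uracil-DNA glycosylase that removes uracil from new DNA, was at 98.7 and 123 CPM in members and at 3.82 and 56.7 CPM in mitotic cells. Its ratio of members over mitotic cells was 25.9 (17.2 to 40.1) at ZT0 and 2.16 (1.67 to 2.85) at ZT12. Gins2, a subunit of the GINS complex that activates the helicase, was at 96.3 and 99.9 CPM in members and 20.9 and 46.7 in mitotic cells. Rrm2, the regulatory subunit of ribonucleotide reductase, showed the opposite order, with 105 and 49.2 CPM in members and 173 and 239 in mitotic cells. Tyms, thymidylate synthase, likewise stood at 117 and 94.1 CPM in members and 214 and 238 in mitotic cells. Pcna, the sliding clamp, was at 269 and 272 CPM in members and 252 and 357 in mitotic cells. Uhrf1, which carries DNA methylation onto the new strand, stood at 101 and 125 CPM in members and 113 and 195 in mitotic cells.

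Replication genes outside the S list were higher in members too. Over all genes of mean CPM 5 or more, 9.66% were at least 1.5-fold higher in members than in the reference at ZT0 and 9.58% at ZT12, with an interval of the ratio that excluded 1, and the median log2 ratio of CPM plus 1 was -0.05 and -0.03. Of the 12 polymerase and primase genes, 10 were higher in each library, with medians of 2.32 and 2.16. Pole, the leading-strand polymerase, stood at 29.9 and 33.5 CPM in members against 1.48 and 0.792 in the reference. Of the clamp loader and fork genes, 18 of 18 were higher at ZT0 and 16 of 17 at ZT12 (medians 1.95 and 2.04). Lig1, which joins Okazaki fragments, was at 126 and 157 CPM against 12.1 and 11.1, and Rpa2, of the single-strand binding complex, at 93.9 and 84.1 against 7.52 and 9.51.

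Licensing genes were less uniform. Of 10 origin licensing genes besides the MCMs, 6 were higher at ZT0 and 7 at ZT12, with medians of 1.25 and 1.17. Cdt1, which loads the helicase and is destroyed once S phase starts, was at 92.1 and 72.9 CPM against 4.57 and 4.95. Of the helicase activation genes, 10 of 12 and 11 of 11 were higher. Cdc45, the partner of GINS in the active helicase, was at 16.2 and 27.1 CPM in members and 35.7 and 50.3 in mitotic cells. Nucleotide supply genes had medians of 0.83 and 0.76, with 12 and 13 of 17 higher. Tk1, thymidine kinase, was at 72.4 and 78.3 CPM in members against 4.87 and 4.36 in the reference.

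Checkpoint and repair genes of S phase had the highest medians outside the S list, 3.23 and 3.29, with 15 of 16 and 17 of 18 measured genes higher. Chek1, the checkpoint kinase, was at 26.3 and 42.7 CPM in members against 1.48 and 0.990 in the reference. Brca2, which acts in repair by homologous recombination, was at 41.9 and 49.0 CPM against 4.72 and 4.16. Chromatin assembly genes had medians of 1.17 and 1.42, with 15 of 19 higher in each library. Chaf1b, a subunit of the chromatin assembly factor that deposits histones behind the fork, was at 51.5 and 59.8 CPM against 2.80 and 2.38. Dnmt1, the maintenance DNA methyltransferase, was at 85.6 and 144 CPM against 25.5 and 28.3.

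**Figure D2:**
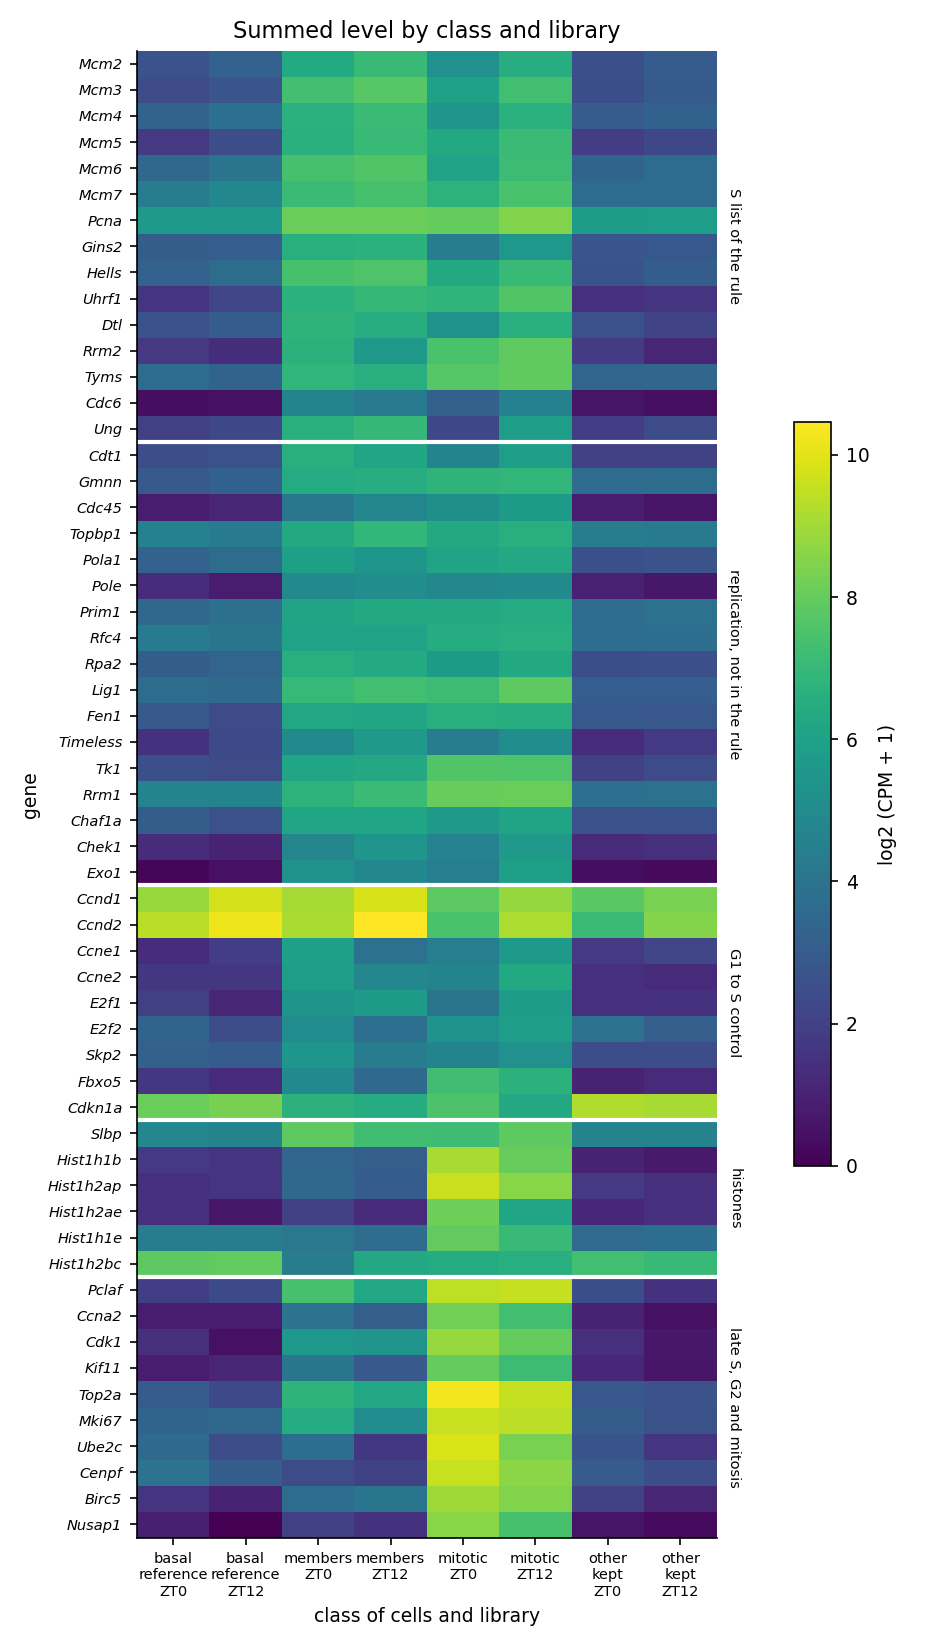
Summed levels as log2 of CPM plus 1 (colour) for replication, G1 to S, histone, late S and mitotic genes (y axis) in the basal reference, the members, the mitotic cells and the other kept cells of each library (x axis). The S list and the other replication genes are bright in members, and the histone and mitotic genes are bright in mitotic cells, such as Hist1h1b at 540 CPM in mitotic cells and 9.57 CPM in members at ZT0.

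As a sum, the replication-dependent histones were not higher in members than in the reference. The 20 histone genes of the list summed to 310 and 297 CPM in members, 356 and 381 CPM in the reference, and 2590 and 1450 CPM in mitotic cells. Of 7 genes measured against the reference at ZT0, 3 were higher and 2 lower (median 0.11), beside 9.66% and 9.45% over all genes. Of 4 measured at ZT12, 1 was higher and 3 were lower (median -1.05), beside 9.58% and 7.11%. Hist1h1b, a linker histone, was at 9.57 and 8.00 CPM in members against 540 and 259 in mitotic cells, or 56.4-fold (34.7 to 98.8) and 32.4-fold (23.7 to 45.1) lower. Hist1h2ap, an H2A gene, was at 10.2 and 7.15 CPM against 784 and 391. Most histone transcripts lack a poly(A) tail, so a 3' library primed on poly(A) captures them in part only, and near-identical copies share reads. Slbp, whose protein binds the stem-loop of histone transcripts, was higher in members, at 229 and 152 CPM against 27.9 and 24.96 in the reference and 149 and 231 in mitotic cells. Hist1h2bc, which also makes polyadenylated transcripts, was lower in members, at 20.3 and 78.5 CPM against 233 and 245 in the reference. Hist1h2bc was thus a large part of the reference sums of 356 and 381 CPM. Sums without it were not compared.

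Genes of late S phase and G2 lay between both classes. The 23 genes of this list had medians of 2.48 and 1.74 over the reference and of -2.86 and -3.06 over mitotic cells, and all 23 were at least 1.5-fold lower than in mitotic cells in each library. The background of lower genes over mitotic cells was 11.1% at ZT0 and 8.29% at ZT12. Ccna2, the cyclin A that carries cells through S phase into G2, was at 15.0 and 8.00 CPM in members, 0.738 and 0.792 in the reference, and 296 and 156 in mitotic cells. Cdk1, the mitotic kinase, was at 46.7 and 43.1 CPM in members and 452 and 251 in mitotic cells. Of the 26 mitotic genes that the rule did not use, 26 were lower than in mitotic cells in each library, with medians of -4.31 and -3.80. Those that the rule did use were not equally low. Top2a, which untangles replicated DNA, stood at 112 and 76.3 CPM in members, and Nusap1, a spindle protein, at 2.99 and 1.87 CPM.

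By a stricter size rule of 2-fold and mean CPM 50, 2.48% of 2943 genes were higher in members than in the reference at ZT0 and 2.06% of 2913 at ZT12. The genes that met it in both libraries numbered 47, of which 11 were in the S list, 24 in other cell cycle lists and 12 in none of them. Those 12 were AI506816, Atad2, Casp8ap2, Dek, Dnajc9, Krt13, Krt4, Nsd2, Ppil1, Psip1, Ranbp1 and Tubb5. Atad2, a chromatin ATPase, was at 184 and 134 CPM against 12.4 and 7.73 in the reference, 14.9-fold (11.6 to 19.2) and 17.4-fold (12.6 to 24.7) higher. Nsd2, a histone H3 lysine methyltransferase, was at 149 and 112 CPM against 20.1 and 17.0. Dnajc9, a co-chaperone that binds histones H3 and H4, was at 96.3 and 120 CPM against 28.9 and 27.9. Krt4 and Krt13 were capped in the reference by its definition, so their ratio says nothing more.

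Genes lower in members than in the reference in both libraries numbered 21. These are among the 1.97% of 2943 genes lower at ZT0 and the 1.48% of 2913 lower at ZT12. Ackr3, a scavenger receptor for the chemokine CXCL12, was at 23.9 and 27.6 CPM in members and 128 and 127 in the reference, 5.34-fold (3.89 to 7.53) and 4.60-fold (3.86 to 5.50) lower. Nrp2, a receptor for semaphorins and VEGF-C, was at 5.98 and 13.3 CPM against 148 and 147. Mt4, a metallothionein of stratified epithelia, was at 317 and 517 CPM against 1342 and 1521. Foxq1, a forkhead transcription factor, was at 19.7 and 61.8 CPM against 170 and 262. Kdm5b, a histone H3 lysine demethylase, was at 38.3 and 46.5 CPM against 99.7 and 114. In Nrp2, 70.0% of the 10 UMIs at ZT0 came from 1 cell.

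The inhibitors of cyclin-dependent kinases and genes of cycle exit went both ways. Of these, 3 were higher and 3 lower than in the reference of 12 measured at ZT0 (median -0.10), and 3 higher and 4 lower of 13 at ZT12 (median 0.09). Over all genes, 9.66% were higher and 9.45% lower at ZT0, and 9.58% and 7.11% at ZT12. Cdkn1a, which encodes the kinase inhibitor p21, was at 104 and 88.4 CPM in members, 267 and 318 in the reference and 585 and 544 in the other kept cells. It was 2.58-fold (2.21 to 3.04) and 3.60-fold (3.26 to 3.99) lower than in the reference. E2f1, an activator of S phase genes, was at 41.9 and 50.4 CPM in members and 2.95 and 1.19 in the reference. Ccnd1 and Ccnd2, the D cyclins of G1, differed little from the reference. Ccnd1 was at 531 and 912 CPM against 464 and 872, and Ccnd2 at 556 and 1403 against 663 and 1173. Wee1, a kinase that restrains CDK1, was at 58.6 and 99.8 CPM against 13.0 and 36.4.

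Between the libraries, members differed in cyclin E, which lies below the mean level of the size rule used further on. Ccne1, the cyclin that drives entry into S phase, was at 58.03 CPM in members at ZT0 and at 13.8 CPM at ZT12, 4.21-fold (3.10 to 5.72) higher at ZT0. The basal reference held 1.48 and 2.77 CPM. Mitotic cells, at 21.5 and 47.6 CPM, had the higher value at ZT12. After thinning to 5000 UMIs, 27.1% of members had a Ccne1 UMI at ZT0 and 5.79% at ZT12, beside 0.329% and 1.39% of reference cells. Without thinning the shares in members were 62.7% and 23.2%, at the median depths given above. Ccne2, the second cyclin E, was at 55.6 and 27.4 CPM, 2.03-fold (1.56 to 2.64) higher at ZT0, while the reference held 2.21 and 2.18 CPM.

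Some other G1 to S genes went the same way. Of the 21 genes of that list, the cyclin E genes included, 7 were at least 1.5-fold lower at ZT12 and 2 were higher. Over 9685 genes, 6.26% were lower and 5.03% higher. The median log2 ratio of ZT12 over ZT0 was -0.21 in members and 0.18 in the reference. Over 17 alternatives of the processing the median in members ran from -0.27 to -0.0081. Skp2, which marks p27 for destruction, was at 44.3 and 19.9 CPM, 2.22-fold (1.64 to 2.999) higher at ZT0. E2f2 was at 31.7 and 12.9 CPM. Fbxo5, or EMI1, an inhibitor of the anaphase-promoting complex, was at 29.9 and 11.1 CPM. The 2 genes higher at ZT12 were Ccnd1, by 1.72-fold (1.60 to 1.85), and Ccnd2, by 2.52-fold (2.36 to 2.70). The summed level of the list was 1.503-fold higher at ZT12, opposite in sign to its median. In the reference these cyclins were also higher at ZT12, by 1.88-fold and 1.77-fold.

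The replication machinery itself was close in the members of both libraries. The S list, which the rule had used, had a median log2 ratio of 0.18, with 1 gene higher and 1 lower. Mcm2 was higher at ZT12, at 83.2 and 135 CPM (1.63-fold, 1.36 to 1.96), and Rrm2 higher at ZT0, at 105 and 49.2 CPM (2.14-fold, 1.76 to 2.59). For the polymerases the median was 0.08, for clamp and fork genes 0.03, for helicase activation 0.03, for licensing -0.03 and for nucleotide supply 0.14, beside -0.01 over all genes. In each of these lists at most 1 gene was higher and at most 1 lower. Summed levels were 1.17-fold (1.06 to 1.29) higher at ZT12 for helicase activation and 1.06-fold (1.01 to 1.11) for clamp and fork genes. Checkpoint and repair genes had a median of 0.22, with 2 of 19 higher and 2 lower, beside 5.03% and 6.26% over all genes. Chromatin assembly genes had 0.06, with 1 of 19 higher. Members of both libraries had passed the same S list limit, and its part in this closeness was not tested.

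Part of the late S and mitotic transcripts were lower in members at ZT12. Of 22 measured late S and G2 genes, 10 were lower and 0 higher, beside 6.26% lower and 5.03% higher over all genes, with a median of -0.59 in members and -0.37 over the 8 genes measured in the reference. Pclaf, a PCNA-binding factor, was at 168 and 74.9 CPM, 2.24-fold (1.93 to 2.61) higher at ZT0. Kif11, the spindle motor, was at 15.6 and 6.64 CPM. Of the 15 measured mitotic genes that the rule did not use, 6 were lower and 0 higher, with a median of -0.68. In the reference 1 of 5 measured was lower and 0 higher, with a median of -0.44. The summed level of these mitotic genes at ZT12 over ZT0 was 0.727 (0.660 to 0.801) in members and 0.711 (0.632 to 0.800) in the reference. For the late S and G2 list it was 0.735 and 0.762, so the sums were lower to a like extent in both classes. Prc1, which bundles microtubules of the spindle midzone, was at 37.7 and 18.0 CPM, 2.09-fold lower at ZT12. The genes of the mitotic list, whose sum the rule capped, are given as a description. Mki67, the proliferation antigen, was at 88.5 and 33.2 CPM, 2.67-fold (2.14 to 3.32) higher at ZT0. Top2a was at 112 and 76.3 CPM. Birc5, or survivin, was at 12.0 and 15.7 CPM, with an interval of the ratio that included 1.

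The differences in Pclaf, Rrm2 and Ccne1 were present at low and at high S list sums. Among members with an S list sum under 20, Pclaf was at 95.4 CPM (78.2 to 115) at ZT0 and 11.2 CPM (7.93 to 15.4) at ZT12, and among those at 20 or more at 317 CPM (271 to 367) and 162 CPM (146 to 179). Rrm2 was at 35.7 and 13.3 CPM in the lower range and 247 and 98.3 CPM in the upper. Ccne1 was at 47.2 CPM (35.4 to 61.8) at ZT0 and 10.0 CPM (6.94 to 14.01) at ZT12 in the lower range, and at 80.0 CPM (58.2 to 107) and 18.9 CPM (13.9 to 25.2) in the upper. Ung, by contrast, was at 61.5 and 89.1 CPM in the lower range and at 175 and 168 CPM in the upper. For Ccna2 and Cdk1 the intervals of the libraries overlapped in each range, which does not show equal levels. Ccna2 had few UMIs in the lower range, 5 at ZT0 and 1 at ZT12. Its level there was 4.46 CPM (1.45 to 10.4) and 0.295 CPM (0.00747 to 1.64). In the upper range Ccna2 was at 36.4 CPM (22.2 to 56.2) and 18.5 CPM (13.6 to 24.7). Cdk1 was at 29.4 CPM (20.3 to 41.3) and 18.9 CPM (14.5 to 24.1) in the lower range. In the upper it was at 81.9 CPM (59.7 to 110) and 76.1 CPM (65.7 to 87.8).

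Members were keratinocytes by their markers. Krt5, Krt14 and Krt15, keratins of the basal layer, were at 4364, 5941 and 6086 CPM in members at ZT0 and at 5514, 10056 and 7748 CPM at ZT12. Trp63, the p63 transcription factor of stratified epithelia, was at 443 and 428 CPM, against 749 and 571 in the reference. Krt14 was lower in members than in the reference, which held 12435 and 16369 CPM, while Krt15 was within 1.11-fold of it in both libraries. Per cell, Krt4 plus Krt13, keratins of cells that have left the basal layer, had a median of 13.2 UMIs per 10000 at ZT0 and 24.9 at ZT12, against 227 and 317 in the other kept cells. Markers of immune cells had 0 UMIs in members at ZT0, which allows up to 1.79 CPM, and 9 UMIs over 7 genes at ZT12. The mitotic cells of ZT0 held 551 UMIs of these markers (75.1 CPM) and those of ZT12 held 0, and the part of this in the comparisons with mitotic cells was not tested. Endothelial, melanocyte and muscle markers had at most 7 UMIs per list and library. Of the fibroblast markers Dcn was present at 1110 and 858 CPM in members and 1637 and 1089 in the reference, while Col1a1, Col1a2, Col3a1 and Lum were at 0 in both.

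Markers of basal subsets differed between members and the reference. Pappa, a protease that frees insulin-like growth factors, was at 232 and 258 CPM in members and 106 and 171 in the reference, with 32.2% of its ZT0 UMIs from 1 cell. Of the marker pair Pappa and Nppc, 2 of 2 were at least 1.5-fold higher at ZT0 and 1 of 2 at ZT12 (medians 1.49 and 0.30). Over all genes 9.66% and 9.58% were higher. Npnt, Frem2 and Sema3c, markers of another basal subset, were each lower in members, where 9.45% and 7.11% of all genes were lower than in the reference. Sema3c was at 50.9 and 77.1 CPM against 123 and 164, and Npnt at 20.3 and 34.7 against 52.8 and 79.8. Cyp2f2, a cytochrome P450, was at 33.5 and 72.7 CPM in members, 8.70 and 13.3 in the reference and 246 and 502 in the other kept cells.

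Members spanned 3 ranges of keratinocyte markers. At ZT0, 28 members were in the basal range, 11 had Krt4 plus Krt13 above 48.4 per 10000 whatever their basal sum, and 20 were below both limits. At ZT12 the numbers were 149, 69 and 41. The range above the Krt4 plus Krt13 limit held unlike cells in the 2 libraries. There, 2 of 11 cells at ZT0 and 59 of 69 at ZT12 reached the basal limit, the median basal sum was 53.9 and 88.7 per 10000, and Krt14 stood at 1607 and 6237 CPM, so differences within this range also compare unlike cells. The share below both limits was 33.9% at ZT0 and 15.8% at ZT12. The median UMI count per cell was between 28427.5 and 29593 in the ZT0 ranges and between 21483 and 24311 in the ZT12 ranges. The summed S list was between 1691 and 1921 CPM in the ZT0 ranges and between 1926 and 2122 CPM in the ZT12 ranges.

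The cyclin E difference was present in each of the 3 ranges. In the basal range Ccne1 was at 57.98 CPM (42.4 to 77.3) at ZT0 and 14.7 CPM (10.8 to 19.4) at ZT12. Above the Krt4 plus Krt13 limit it was at 63.3 CPM (38.6 to 97.7) and 15.3 CPM (9.77 to 22.7). Below both limits it was at 55.2 CPM (37.5 to 78.3) and 8.76 CPM (4.01 to 16.6). Ccne2 was also higher at ZT0 in all 3 ranges, at 61.8, 53.8 and 48.1 CPM against 29.3, 24.8 and 25.3 CPM. Rrm2 was higher at ZT0 in the first and second range, while its intervals overlapped in the third, where it was at 80.1 CPM (58.4 to 107) and 75.9 CPM (60.0 to 94.8). Pclaf was likewise higher at ZT0 in the first and second range, and stood at 123 CPM (95.6 to 155) and 133 CPM (112 to 158) in the third.

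**Figure D3:**
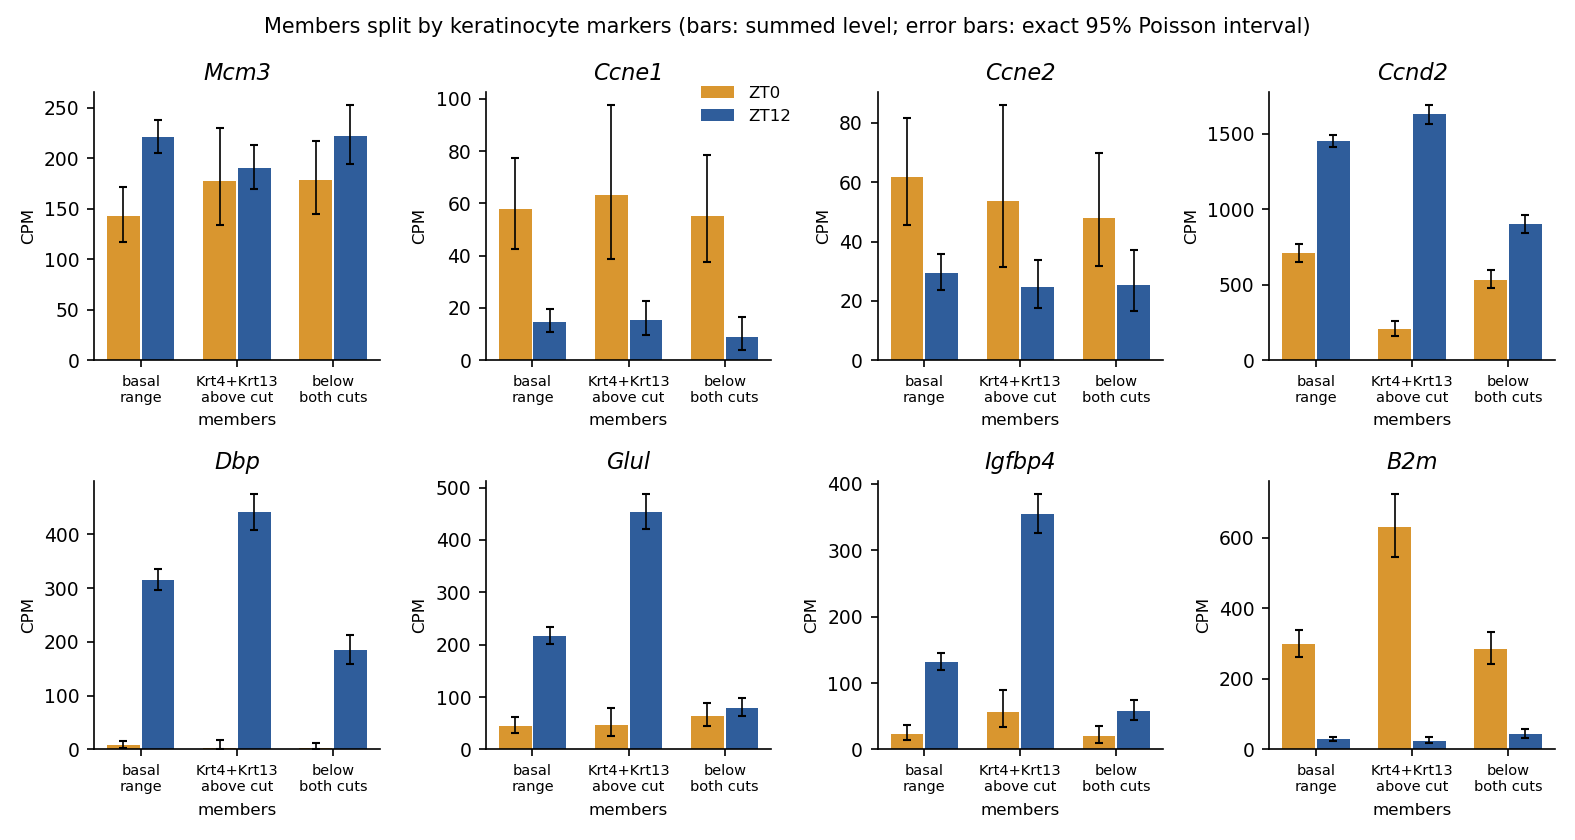
Summed level in CPM (y axes, from 0) of 8 genes in members of the basal range, members with Krt4 plus Krt13 above the limit and members below both limits (x axis), at ZT0 (orange) and ZT12 (blue), with exact 95% Poisson intervals. Ccne1 and Ccne2 are higher at ZT0 in every range, Dbp is higher at ZT12 in every range, and Glul differs least below both limits, at 64.1 and 79.8 CPM.

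By the size rule, 26 genes (0.9% of 2888) were higher in members at ZT12 and 15 (0.519%) were lower, 41 in all (1.42%). In the reference 14 (0.476%) and 17 (0.578%) of 2939 met it. Members and reference shared 7 higher genes, 7 of 26 and 7 of 14, and 7 lower genes, 7 of 15 and 7 of 17.

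Clock genes were among those with the largest ratios. The core loop of the circadian clock has BMAL1 (Arntl) and CLOCK or NPAS2 as activators, and REV-ERB proteins (Nr1d1, Nr1d2) and CRY1 among its repressors. The 7 evening genes were all higher in the ZT12 members (median 2.79 on the log2 scale), and 6 of 7 were higher in the ZT12 reference (median 2.35), where the background of higher genes was 2.89%. Dbp, a bZip output factor, was at 5.38 CPM in members at ZT0 and 326 CPM at ZT12, 60.5-fold (31.8 to 133) higher, and at 7.97 and 241 CPM in the reference. Nr1d1 was at 5.38 and 102 CPM in members, 19.0-fold (9.94 to 41.8) higher, and at 20.8 and 99.8 CPM in the reference, 4.80-fold (3.97 to 5.83). Per3 was at 19.7 and 143 CPM and Tef at 18.5 and 120 CPM. Hlf, a relative of Dbp, was at 29.3 and 118 CPM in members, 4.02-fold (3.01 to 5.49), against 50.5 and 72.5 CPM in the reference, 1.44-fold (1.24 to 1.67). Arntl, at 26.9 and 1.02 CPM, was 26.4-fold (11.2 to 75.6) lower at ZT12. Cry1, at 29.9 and 12.1 CPM in members and 38.1 and 7.33 in the reference, and Clock, at 87.3 and 48.2 CPM in members, were also lower at ZT12. Npas2, at 7.18 and 4.09 CPM, had an interval that included 1 in members.

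**Figure D4:**
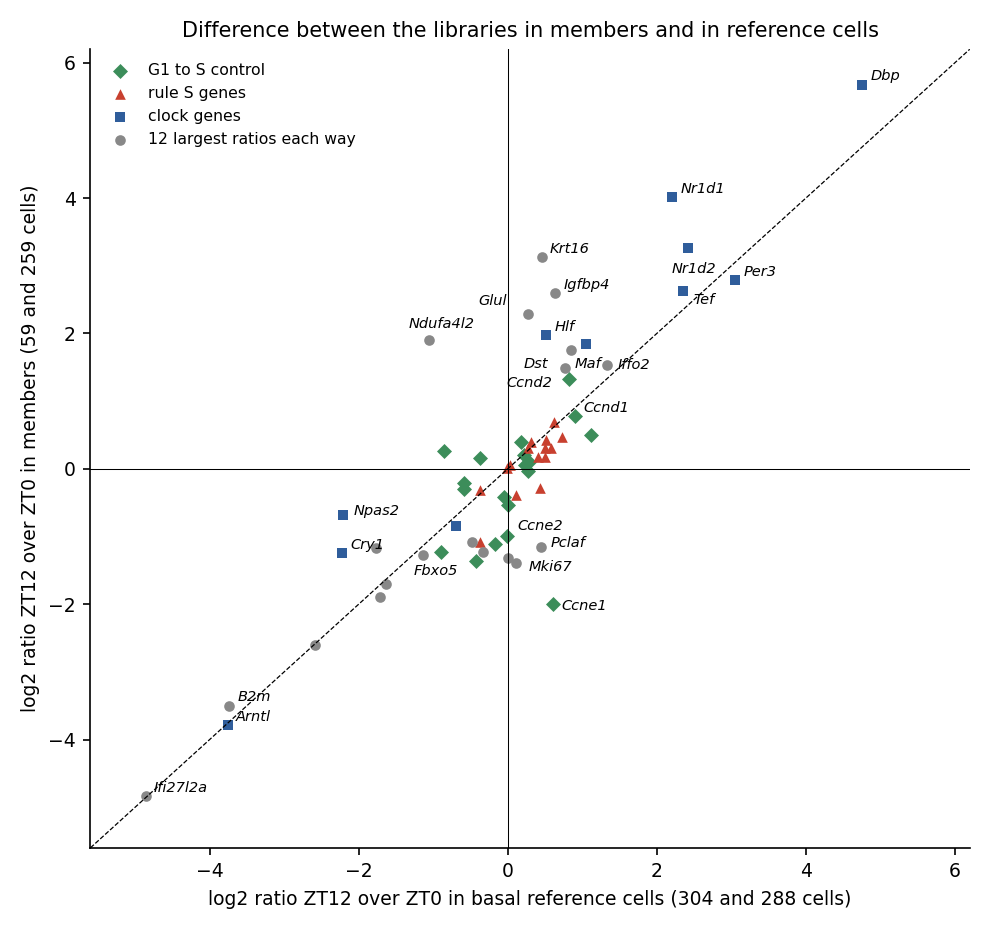
Log2 ratio of ZT12 over ZT0 of CPM plus 1 in the basal reference (x axis) and in members (y axis) for the G1 to S genes, the S list, the clock genes and the 12 genes of largest ratio each way, with 1 library per time and the dashed line where both ratios are equal. Dbp, Arntl and Ifi27l2a lie far out near the line, Ccne1 lies below it at -1.997 in members and 0.61 in the reference, and Ndufa4l2 lies above it at 1.90 and -1.05.

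Several genes outside the clock were higher in members at ZT12. Igfbp4, which binds insulin-like growth factors, was at 28.7 and 178 CPM in members, 6.21-fold (4.65 to 8.47) higher, and at 57.2 and 89.3 CPM in the reference. Glul, glutamine synthetase, was at 51.5 and 256 CPM, 4.98-fold (4.003 to 6.26), and at 116 and 141 CPM in the reference. Dst, which anchors keratin to hemidesmosomes, was at 540 and 1519 CPM, 2.81-fold (2.62 to 3.01), and at 1078 and 1837 CPM in the reference. Maf, a bZip transcription factor, was at 52.6 and 181 CPM, and Iffo2, an intermediate filament family member, at 47.9 and 141 CPM. Igfbp4 and Dst were higher at ZT12 in all 3 keratinocyte ranges. Glul was so in the basal range, at 44.1 and 217 CPM, and above the Krt4 plus Krt13 limit, at 47.4 and 453 CPM, while its intervals overlapped below both limits. Krt16, a keratin of stressed epithelium, was at 28.1 and 255 CPM, but 1 cell held 62.8% of its ZT12 UMIs, and with an S list limit of 20 its log2 ratio turned from 3.13 to -0.26.

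Genes of interferon response and antigen presentation were higher in members at ZT0. Of the interferon genes that could be measured, 16 of 16 were lower in the ZT12 members and 16 of 16 in the ZT12 reference, where the background of lower genes was 5.24% of 9495, with medians of -2.45 and -2.30. The antigen presentation genes gave 16 of 16 and 15 of 15, with -1.87 and -1.71. Ifi27l2a, an interferon-induced gene, was at 457 CPM in members at ZT0 and 15.0 CPM at ZT12, 30.5-fold (24.4 to 38.5) lower, and at 540 and 17.6 CPM in the reference. B2m, the invariant chain of class I molecules, was at 357 and 30.6 CPM, 11.6-fold (9.83 to 13.8) lower, and at 308 and 22.2 CPM in the reference. H2-K1 and H2-D1, class I heavy chains whose reads can be shared with related genes, were at 592 and 96.4 CPM and at 420 and 113 CPM in members. B2m was lower at ZT12 in each keratinocyte range, with the highest level, 629 CPM, above the Krt4 plus Krt13 limit at ZT0. The 7 immune markers had 0 UMIs in the ZT0 members and 9 at ZT12. In the reference they had 36 UMIs at ZT0 and 7 at ZT12, a ratio of 0.261 (0.098 to 0.595), and their part in its differences was not tested.

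The remaining genes lower at ZT12 by the size rule and among the 12 of largest ratio were Ifitm3, Ly6e, Serpine2, Pim1, Tgif1 and Fdps. Pim1, a kinase that promotes survival and cycle entry, was at 71.2 and 29.96 CPM in members, 2.38-fold (1.87 to 3.02) lower, and at 49.7 and 39.4 CPM in the reference, 1.26-fold (1.06 to 1.51). Tgif1, a homeobox repressor in TGF-beta signalling, was at 123 and 57.2 CPM, 2.14-fold (1.79 to 2.56) lower, and at 133 and 95.1 CPM in the reference. Serpine2, a protease inhibitor, was at 120 and 48.9 CPM in members and 82.8 and 37.2 CPM in the reference. Fdps, of the sterol pathway, was at 77.2 and 30.5 CPM with 31.0% of its ZT0 UMIs from 1 cell.

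Lists of growth and stress gave small medians. Ribosome biogenesis genes had a median of 0.26 in members, with 1 of 20 higher, close to the 5.03% over all genes, and 0.09 in the reference. Over the reference they were higher in members by medians of 0.38 and 0.39, with 4 and 6 of 20 genes at 1.5-fold, beside 9.66% and 9.58% over all genes, and Nop56, of the box C/D particles that modify ribosomal RNA, was at 159 and 174 CPM against 88.4 and 88.5. Growth factor and immediate early genes had a median of -0.09 in members and 0.20 in the reference. Fos, an immediate early gene, was at 701 and 476 CPM in members and 613 and 717 in the reference.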

How the data were processed

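The deposited matrices hold UMI counts per gene and barcode that the authors made with Cell Ranger on mm10. The submitters' processing notes name version 2.1.1 and the file headers name version 4.0.0. From these counts, barcodes with at least 500 genes, at least 5000 UMIs and under 10% mitochondrial UMIs were kept (1525 of 1726 at ZT0 and 2553 of 2819 at ZT12; 49310978 and 67215015 UMIs), and the rule was applied to them. Counts were summed per class and library, scaled to CPM, and compared as log2 ratios of CPM plus 1. No test was made, since each time had 1 library. Shares have exact Clopper-Pearson intervals, ratios exact conditional binomial intervals and levels exact Poisson intervals, and a count of 0 allows up to 3 UMIs. The size rule asked for mean CPM 50, a 2-fold ratio and an interval that excluded 1. The list rule asked for mean CPM 5 and 1.5-fold.

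Genes were named by rule: in each comparison the 12 of largest ratio each way that met the size rule (members over reference in both libraries, cell cycle genes apart), the genes that define the members, the clock genes, and up to 4 genes per list with the largest ratio at mean CPM 20. Other named genes were chosen after their values were seen. The members and the 35 gene lists were chosen with earlier results of these data known. Scripts were tested on simulated data and ran in Python 3.11.15 with numpy 2.4.6, scipy 1.17.1, pandas 2.3.3 and scanpy 1.11.5 (Scrublet as an alternative). TMM scaling from edgeR 4.0.16 was an alternative too. Promoter windows came from RefSeq, GRCm38.p6. Some genes are not reported here.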

Additional observations from a re-analysis of the deposited data

Results flagged for a closer look

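For 3 genes the ZT12 library was higher than the ZT0 library in members and lower in the basal reference, and the difference between these effects was not tested. Ndufa4l2, which encodes a mitochondrial protein induced by low oxygen, had a log2 ratio of 1.90 in members, at 69.4 and 262 CPM, and of -1.05 in the reference, at 409 and 197 CPM. In members it was higher at ZT12 in the basal range, at 83.2 and 201 CPM, and above the Krt4 plus Krt13 limit, at 66.4 and 531 CPM, but stood at 51.6 and 43.8 CPM below both limits. Meis1, a homeobox transcription factor, had 0.80 in members, at 49.1 and 86.1 CPM, and -0.59 in the reference, at 82.3 and 54.3 CPM. Ahnak2, a large scaffold protein, had 0.93 in members, at 44.3 and 85.3 CPM, and -0.80 in the reference, at 114 and 65.0 CPM. Meis1 and Ahnak2 fall outside the rule for named genes and were chosen after their values were seen.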

How the results depend on the processing

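Over 898 combinations of a result and an alternative, 755 stayed within the limits set, 137 moved and 6 reversed, and 33 of 39 named genes kept their direction throughout. The share of members, 2.62-fold higher at ZT12, ran from 2.27 to 4.20 over 12 alternatives, with 3.68 at an S list limit of 20 (18 and 111 members), 3.99 among cells at or above the basal limit and 4.20 when Krt4 plus Krt13 was limited too, the last chosen after seeing the data. Genes higher and lower at ZT12 numbered 47 and 25 at that limit, 63 and 55 at mean CPM 20, 17 and 7 at mean CPM 100, and 281 and 390 with no minimum. Genes higher and lower than the reference numbered 207 and 124 (ZT0) and 167 and 78 (ZT12) at mean CPM 20, 22 and 30 and 20 and 19 at 100, and 712 and 426 and 681 and 315 with no minimum. At an S list limit of 20, the median of ribosome biogenesis genes turned to -0.0072, Krt16 to -0.26, Ung to -0.053 and Dtl to 0.14, and the evening clock median was 2.52. The cause was not tested. The histone median turned to 0.34 with only members at or above the basal limit and to 0.65 at mean CPM 20, over few genes. The late S and G2 median stayed negative, at -0.46 (S list limit 20), -0.67 (mitotic limit 5), -0.66 (mitochondrial share under 5%), -0.53 (without the top 5% of Scrublet scores), -0.47 (thinned to 5000 UMIs), -0.42 (S list without Mcm genes), -0.78 (members at or above the basal limit), -0.49 (pseudocount 5) and -0.33 (mean CPM 20). The evening clock median was 3.18 in members at or above the basal limit. The interferon median was -1.93 (mitochondrial share under 5%), -2.65 (mean per cell), -2.89 and -1.75 (pseudocounts 0.1 and 5) and -4.24 (mean CPM 20). The antigen presentation median was -1.75 (S list limit 5), -1.59 (mitochondrial share under 5%), -2.001 (mean per cell), -1.55 (pseudocount 5) and -1.61 (mean CPM 20). Leaving out the cell with the most UMIs of a gene, an alternative chosen after seeing the data, left Krt16 at 2.15. TMM scaling moved log2 ratios by 0.028 or less. No paired analysis was possible because there was 1 library per time. The 59 members at ZT0 limit the precision of low genes.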
